A study of Caenorhabditis elegans with 24 samples.

Results

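The genes described here are the nuclear hormone receptor genes of Caenorhabditis elegans that carry an nhr name. They were chosen by name and by count: an nhr gene was taken as a member if it had at least 10 counts in at least 3 of the 24 libraries. Of 43800 gene entries in the deposited table, 266 carry an nhr name and 193 of these passed. Of the remaining 73, 6 were listed at 0 in every library. The weakest members were nhr-150, with at least 10 counts in 3 libraries and 116 counts in all, and nhr-221, with 4 such libraries and 123 counts. The nearest genes left out were nhr-258, with 2 such libraries and 106 counts, and nhr-155, with 1 such library and 93 counts.

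Nuclear receptors are transcription factors that bind DNA through a zinc finger domain and can be switched by a small hydrophobic ligand such as a steroid, a fatty acid or a bacterial metabolite. Nematodes carry a greatly enlarged family, most of it related to the vertebrate receptor HNF4, and a smaller set with direct counterparts in insects and vertebrates. In the worm, receptors of this family are known for linking food and fat to enzyme genes in the intestine, for moulting, and for responses to toxins and bacteria, while the function of many members is not known.

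RNA was taken from whole L4 hermaphrodites, the last larval stage, of 4 strains: efk-1(ok3609), zip-2(tm4248), cep-1(gk138) and N2, the wild type. efk-1 encodes eukaryotic elongation factor kinase, zip-2 a bZIP transcription factor of the infection response and cep-1 the worm p53. Each strain was starved for 8 h on plates without bacteria or was fed on Escherichia coli OP50 and collected at mid-L4, which gives 8 groups of 3 libraries. Starved animals were also washed and were 8 h older than fed ones, so food, handling and age cannot be told apart in any starved against fed comparison. Each mutation is 1 allele and each replicate is a pool of animals. Nothing in the labels says whether the 3 libraries of a group came from separate cultures, so p-values measure the spread between these libraries, which may be technical. In whole animals, fewer cells of a type and less RNA per cell cannot be told apart.

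Totals ran between 14622266 and 30266282 counts per library. The efk-1 transcript stood at 10.6, 11.5 and 13.1 CPM, the counts of a gene scaled to a common library total, in starved efk-1 animals and 8.83, 7.07 and 9.04 CPM in fed ones, below every library of the other strains. The zip-2 transcript had 290, 158 and 211 CPM in starved libraries labelled zip-2 and 310, 321 and 311 CPM in starved N2. In fed libraries it averaged 160 ± 33.7 CPM in those labelled zip-2 and 281 ± 44.4 CPM in N2 (SD, n = 3 each). Neither difference was called (log2 fold change -0.52 starved and -0.81 fed, edgeR adjusted p = 1.0 and 0.258). The cep-1 transcript was not called different between the libraries labelled cep-1 and N2 (log2 fold change -0.21 ± 0.33 starved and 0.34 ± 0.33 fed, ± SE), and the position of either deletion within its transcript was not analysed here. These transcripts thus do not check the zip-2 and cep-1 labels, and zip-2 and cep-1 below name the libraries by label. Of the cell type markers, the summed intestine list was 792 to 2094 CPM in starved and 2456 to 3771 CPM in fed libraries, with 1 of 7 markers called higher and 3 lower in the mean of the 4 strains. The 6 epidermis markers summed to 153 to 935 CPM in starved and 469 to 3048 CPM in fed libraries, with 1 called higher and 4 lower. The 5 oocyte markers, all called higher, summed to 1239 to 5510 CPM in starved and 835 to 3777 CPM in fed libraries. No listed marker was at 0. In 4 starved libraries (replicate 2 of efk-1, zip-2 and N2 and replicate 3 of cep-1) oocyte markers were at 3458 to 5510 CPM, against 1239 to 3027 CPM in the other 8 starved libraries, and these 4 are referred to below as the oocyte-rich libraries. They were picked in part on their summed receptor counts, so receptor values that are low in them are partly fixed by that choice.

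The receptor transcripts were mostly scarce. In fed N2 animals the median member had a mean of 3.18 CPM, 39 members were under 1 CPM and 27 were over 10 CPM. Per kilobase of the longest annotated transcript, nhr-114 was the most abundant in fed N2 (145 CPM per kb), followed by nhr-68 (32.6), nhr-86 (28.9), nhr-49 (26.3), nhr-3 (17.7), nhr-8 (15.6) and nhr-35 (13.2). In starved N2 the level per kilobase was 36.8 CPM for nhr-114, 44.6 for nhr-49, 31.1 for nhr-86, 23.7 for nhr-35 and 21.1 for nhr-68, so that nhr-49 stood above nhr-114. Summed over all members, receptor transcripts made up 1253 to 1595 CPM in starved and 1247 to 1571 CPM in fed libraries, and these ranges overlapped almost wholly. nhr-114 made up 1.59 to 5.49% of that sum in starved libraries and 8.81 to 19.2% in fed ones.

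Starvation changed receptor transcripts in both directions in every strain. A gene was called when its adjusted p was under 0.05 in edgeR's quasi-likelihood test, adjusted by Benjamini-Hochberg over all 15871 genes tested, which held all 193 members. In efk-1, 35 members were called higher and 11 lower, 23.8% of members beside 25.4% of all genes tested (13.7% higher, 11.6% lower). In zip-2, 34 were higher and 19 lower, 27.5% beside 34.4% (17.6% higher, 16.8% lower). In cep-1, 29 were higher and 12 lower, 21.2% beside 28.4% (12.3% higher, 16.1% lower). In N2, 30 were higher and 16 lower, 23.8% beside 32.3% (15.9% higher, 16.4% lower). The share of members called was thus near or below the background in each strain. The 4 strains pooled into 1 contrast, the mean of their log2 fold changes, gave 65 members higher and 41 lower, 54.9% beside 63.5% of all genes. The median member changed by 0.11 on the log2 scale in that contrast and the median gene by 0.03. Of the 193 members, 33.7% were called higher and 21.2% lower, and of all genes tested 32.7% and 30.8%.

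The sign of the starvation response was the same in all 4 strains for 123 of 193 members (63.7%, beside 68.3% of all genes tested). Of these, 78 were positive (40.4%, beside 35.5%) and 45 negative (23.3%, beside 32.7%). In at least 1 strain 75 members were called (38.9%, beside 51.1%), and 118 were called in none. No member, and 0.252% of all genes, was called higher in 1 strain and lower in another. Called higher in all 4 strains were 16 members (8.29%, beside 5.56% of all genes tested), and 6 were called lower in all 4 (3.11%, beside 6.81%). With only the groups compared in each fit, 11 members instead of 22 were called in the same direction in all 4 strains, and 19 instead of 41 for starvation in cep-1. Without the oocyte-rich libraries the count in all 4 strains was 18. The shares of all genes called under these alternatives are not given here, so the drops cannot be read as particular to the receptors.

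**Figure D1:**
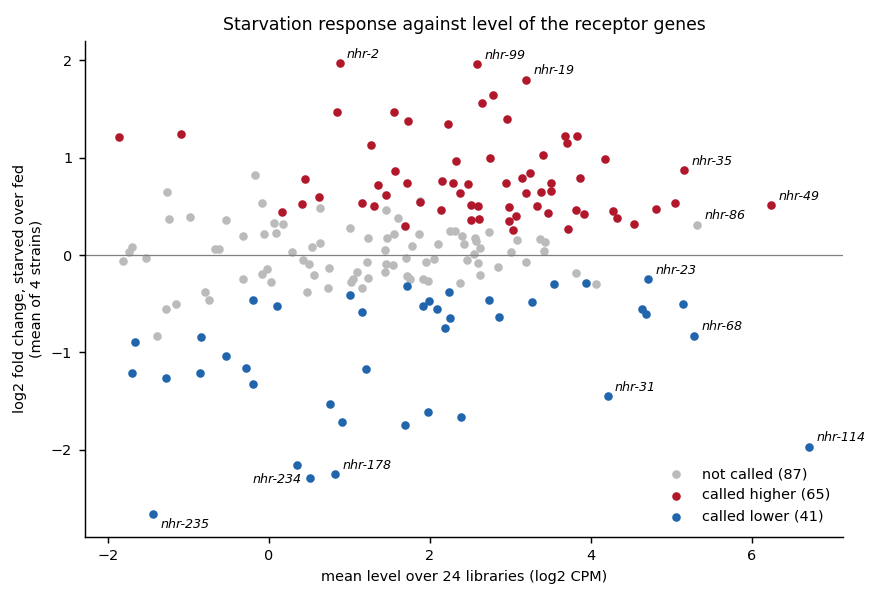
Each point is 1 member, plotted by its mean level over the 24 libraries (log2 CPM, horizontal) and its log2 fold change of starved over fed animals as the mean of the 4 strains (vertical), with colour giving the call at an adjusted p under 0.05. The 65 members called higher and the 41 called lower spread over all levels, and nhr-114, the most abundant member, lies far below 0. nhr-245, with 0 counts in most starved libraries, is counted but not drawn.

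Of the 6 members that fell in all 4 strains, nhr-114 was by far the most abundant. It encodes an HNF4-related receptor reported in worms to guard the germ line against harmful components of the bacterial diet, with vitamin B12 and tryptophan as modifiers. The gene (WBGene00003704) lies at V:4187202-4190008 on the plus strand in WBcel235 and overlaps a protein-coding gene on the other strand, Y45G5AM.9. It had 63.2, 81.2 and 65.4 CPM in starved efk-1 animals, against 255, 220 and 238 CPM in fed ones. Libraries labelled zip-2 had 67.6, 64 and 70.0 CPM when starved and 217, 228 and 242 CPM when fed. Libraries labelled cep-1 held 41.7, 29.7 and 22 CPM in starved and 214, 128 and 138 CPM in fed animals. Every starved library was thus below every fed library of any strain. N2 animals averaged 56.0 ± 4.57 CPM starved and 221 ± 32.9 CPM fed (SD, n = 3 each). The fall was 1.97 on the log2 scale in the mean of the 4 strains (log2 fold change -1.97, SE 0.11, edgeR adjusted p = 5.09e-12) and was called in each strain whichever library was left out. Of the 7 intestine markers, 3 were called lower (act-5, pept-1 and ges-1), elt-7 was called higher and 3 were not called, among them elt-2, the main transcription factor of the intestine (-0.13). The summed list fell mainly through act-5, an intestinal actin, with a median of 207 CPM starved and 1890 CPM fed, and the part of these markers in the fall of nhr-114 was not tested.

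The other 5 members of this group were less abundant. nhr-31 (WBGene00003625, IV:8022655-8029513, minus strand), which in worms controls vacuolar ATPase genes of the excretory canal, had a lowest, median and highest level of 4.25, 11.7 and 19.5 CPM over the 12 starved libraries and 13.5, 32.4 and 42.8 CPM over the 12 fed ones. Within each strain its starved and fed libraries did not overlap, and the mean log2 fold change was -1.45 (SE 0.19, edgeR adjusted p = 1.15e-06). In efk-1 its adjusted p was 0.0499 and the call was lost, with adjusted p between 0.089 and 0.2, when any 1 of fed replicates 1, 2 or 3 or starved replicates 2 or 3 was left out.

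nhr-178 (WBGene00017510, V:1603906-1607953, minus strand) had 0.388, 0.702 and 1.33 CPM as lowest, median and highest starved values and 1.22, 4.08 and 4.96 CPM as fed ones. Its log2 fold change was -2.25 (SE 0.24, edgeR adjusted p = 9.52e-08), and no single library carried the call. nhr-234 (WBGene00012596, II:12636678-12638491, plus strand) spanned 0.271 to 1.39 CPM in starved and 0.406 to 6.73 CPM in fed libraries, and changed by -2.29 on the log2 scale (SE 0.29, edgeR adjusted p = 1.03e-06). Its cep-1 groups overlapped, because 1 fed library labelled cep-1 was at 0.406 CPM. nhr-137 on chromosome X fell by 1.66 on the log2 scale and nhr-142 on chromosome V by 1.17. Single libraries carried some of these calls. In cep-1 the call was lost without fed replicate 2 or 3 or starved replicate 3 for nhr-137, without fed replicate 3 or starved replicate 1 or 3 for nhr-142, and without fed replicate 2 or 3 or starved replicate 1 or 3 for nhr-234. In efk-1, nhr-137 lost its call without starved replicate 2 or 3, and in zip-2 nhr-142 did so without fed replicate 3 or starved replicate 2.

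**Figure D2:**
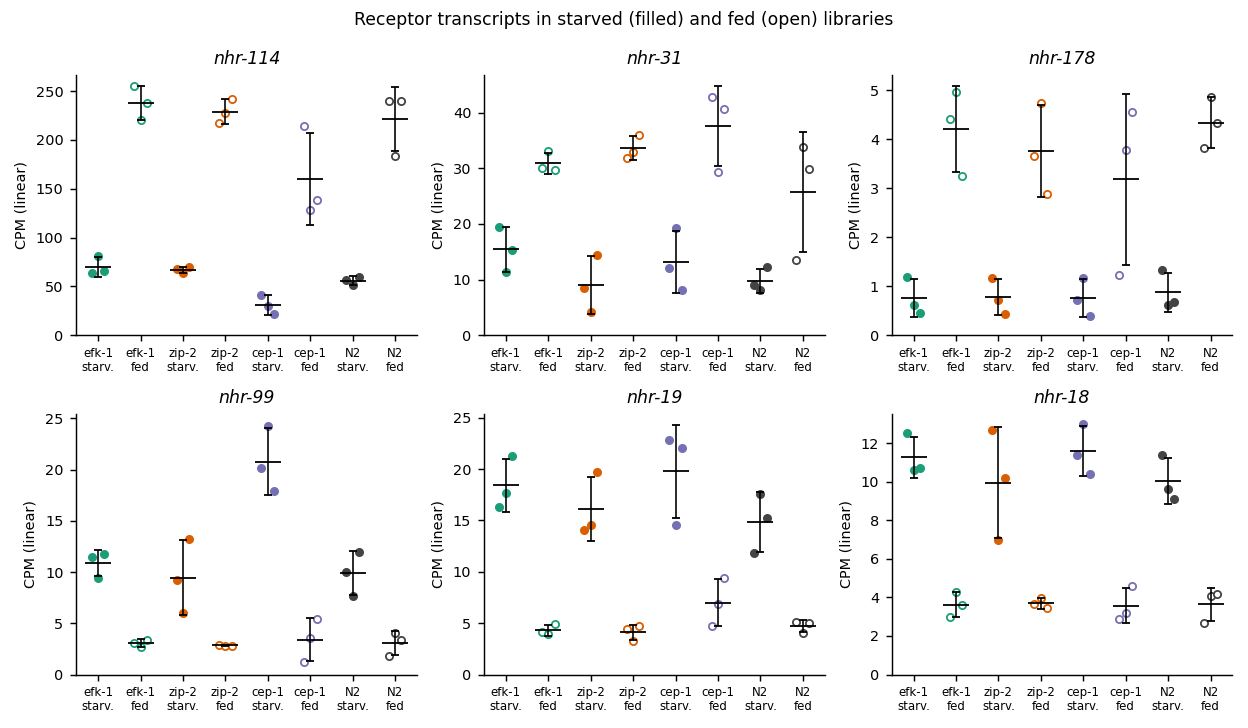
Levels of 6 members in CPM (linear vertical axis) in each library, by strain, with starved libraries as filled and fed ones as open points; the bar and whiskers are the mean and SD of 3 libraries. nhr-114, nhr-31 and nhr-178 are lower, and nhr-99, nhr-19 and nhr-18 higher, in all starved libraries of each strain than in its fed ones.

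The 16 members that rose in all 4 strains were nhr-2, nhr-18, nhr-19, nhr-21, nhr-32, nhr-35, nhr-58, nhr-64, nhr-71, nhr-99, nhr-103, nhr-116, nhr-122, nhr-133, nhr-134 and nhr-180. Most have no function that can be stated here. nhr-19 (WBGene00003618, II:9598180-9605526, minus strand) had 11.8, 17 and 22.8 CPM as lowest, median and highest starved values and 3.30, 4.72 and 9.37 CPM as fed ones. All 12 starved libraries exceeded all 12 fed ones, and the log2 fold change was 1.80 (SE 0.13, edgeR adjusted p = 2.32e-10). Its locus overlaps mrpl-53 on the other strand.

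nhr-99 (WBGene00003689, V:474778-477155, plus strand) rose by 1.96 on the log2 scale (SE 0.19, edgeR adjusted p = 2.95e-08). In the libraries labelled cep-1 it had 20.2, 24.3 and 17.9 CPM starved and 1.22, 3.61 and 5.42 CPM fed, and in N2 10, 7.71 and 12 CPM starved and 1.81, 4.07 and 3.35 CPM fed. The cep-1 response (2.61) and the N2 response (1.68) differed by 0.93 on the log2 scale, which was not called (edgeR adjusted p = 0.907). The call of nhr-99 itself was kept in each strain with any 1 library left out.

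nhr-2 (WBGene00003601, I:5818474-5821134, minus strand), a receptor reported in early embryos, had the largest positive mean response, 1.97 (SE 0.27, edgeR adjusted p = 2.87e-06), from a low level. Its starved values ran between 1.64 and 11.2 CPM and its fed values between 0.302 and 3.94 CPM, without overlap inside any strain. In efk-1 the call was lost without any 1 of fed replicates 1 to 3 or starved replicates 2 or 3, and in zip-2 without fed replicate 3. Oocyte markers were also higher in starved animals, as given above, and summed germ line markers were at 1243 to 2659 CPM in starved and 937 to 1910 CPM in fed libraries; their part in this rise was not tested. nhr-21 on chromosome II rose by 1.64 (SE 0.25, edgeR adjusted p = 1.08e-05), but its oocyte-rich libraries were low: 6.32 CPM in efk-1, 3.35 in zip-2, 11.8 in cep-1 and 3.65 in N2, against 11.4 to 28.0 CPM in the other starved libraries. Of 24 tests with 1 library left out, nhr-21 lost its call in 12, spread over all 4 strains.

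The remaining members of the group changed by 0.79 to 1.56 on the log2 scale. nhr-35 (WBGene00003628, X:4532691-4537546, plus strand) had 39.2, 48.1 and 56.2 CPM as lowest, median and highest starved values and 21.8, 25.7 and 33.7 CPM as fed ones. Starved and fed libraries did not overlap, and the log2 fold change was 0.87 (SE 0.09, edgeR adjusted p = 2.99e-08). nhr-64, an HNF4-related receptor linked to fat metabolism in worms, had 16.1 to 22.3 CPM starved and 8.35 to 13.7 CPM fed (log2 fold change 0.79, SE 0.09). nhr-122 on chromosome IV, at 16.1 to 26.1 CPM starved and 5.85 to 10.6 CPM fed, rose by 1.22 (SE 0.11). nhr-32 on chromosome X rose by 1.03, nhr-116 by 1.47, nhr-58 by 1.40 and nhr-180 by 1.35, each with no overlap of starved and fed libraries in any strain. The cep-1 call of nhr-71 (0.67, edgeR adjusted p = 0.0479) was lost without cep-1 fed replicate 2 or 3 or starved replicate 1 or 3, with adjusted p of 0.117 to 0.248. Single omissions also ended a call for nhr-58 (efk-1 fed replicate 2, zip-2 starved replicate 2, cep-1 fed replicate 1 or starved replicate 3), nhr-64 (N2 starved replicate 1, zip-2 fed replicate 3), nhr-133 (N2 fed replicate 1 or starved replicate 2), nhr-134 (zip-2 starved replicate 1) and nhr-103 (cep-1 starved replicate 2).

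**Figure D3:**
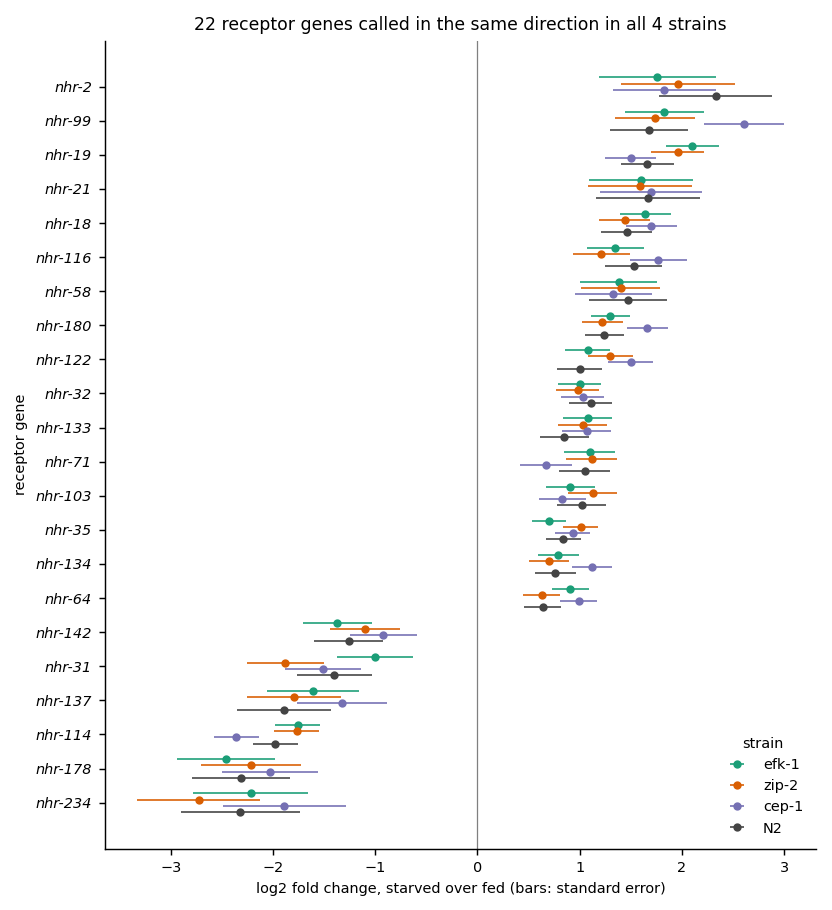
Starvation response of the 22 members called in the same direction in all 4 strains: points are log2 fold changes of starved over fed animals in each strain and bars are standard errors. The 16 members above lie right of 0 and the 6 below lie left of 0 in every strain, which follows from how they were chosen.

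Several members were called in 3 strains or fewer but moved as far. nhr-206 had 1.11 to 3.92 CPM in starved and 0.302 to 1.93 CPM in fed libraries (mean log2 fold change 1.47, SE 0.21), and was not called in cep-1 (1.02, edgeR adjusted p = 0.0653). nhr-88 rose by 1.22 and was likewise not called in cep-1 (0.70, edgeR adjusted p = 0.151). The efk-1 call of nhr-206 was lost without any 1 of 5 efk-1 libraries (all but fed replicate 2), and that of nhr-88 without efk-1 starved replicate 2 or, in N2, without fed replicate 1 or 2 or starved replicate 2. nhr-55, with 13.7 to 30 CPM starved and 6.61 to 13.7 CPM fed, rose by 1.15 and was not called in N2 (0.63, edgeR adjusted p = 0.0898). On the other side, nhr-235 fell by 2.66 (SE 0.42, edgeR adjusted p = 1.62e-05) at very low levels, 0 to 0.492 CPM in starved and 0.122 to 1.45 CPM in fed libraries. nhr-113 on chromosome I fell by 2.16 and nhr-232 by 1.61, and neither was called in cep-1. The call of nhr-113 was lost in 6 of 12 alternatives in N2 and 3 in efk-1, and that of nhr-232 in 5 in N2, 3 in efk-1 and 2 in zip-2. These included omission of starved replicate 2 of N2 or of starved replicate 2 or 3 of efk-1 for both genes. The further omissions were N2 fed replicate 1 or 3, N2 starved replicate 3 and efk-1 fed replicate 1 for nhr-113. For nhr-232 they were N2 fed replicate 2 or 3, N2 starved replicate 1, efk-1 fed replicate 2 and zip-2 fed replicate 2 or starved replicate 2. Both genes kept the call in the mean of the 4 strains in all 29 alternatives.

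Members are unevenly placed on the chromosomes: 121 of 193 (62.7%) lie on chromosome V, 26 on IV, 16 on X, 14 on I, 11 on II and 5 on III. In the mean of the 4 strains, 50.4% of the members on V were called, and between 56.2% (X) and 72.7% (II) on the other chromosomes. The median level was 2.74 CPM for members on V and 8.36 to 11.5 CPM on II, III, IV and X. On I it was 2.72 CPM, with 64.3% called. The part of level in these shares was not tested. Of all genes tested 63.5% were called in that contrast, and their shares by chromosome were not computed. Among the members, 61 pairs have no other protein-coding gene between them, 51 of these on V. Both members of a pair were called higher in 7 pairs, both lower in 6, in opposite directions in 5, only 1 in 28 and neither in 15. Of all members 33.7% were called higher and 21.2% lower. Neighbouring pairs of other genes were not counted, so these numbers describe the pairs only. A run of 5 neighbours on the plus strand, nhr-103, nhr-18, nhr-126, nhr-134 and nhr-96, fills V:2225430-2235180. All 5 were called higher in the mean of the 4 strains. The run was picked by these calls, and nhr-128, next to nhr-103 at V:2222064-2225321, was not called (0.28). nhr-18 in this run had 6.96, 10.6 and 13 CPM as lowest, median and highest starved values and 2.67, 3.63 and 4.59 CPM as fed ones (log2 fold change 1.56, SE 0.13, edgeR adjusted p = 1.32e-09). The changes of its neighbours were 0.97 for nhr-103, 0.46 for nhr-126, 0.84 for nhr-134 and 0.74 for nhr-96. In single strains nhr-126 was not called. nhr-133, which also rose in all 4 strains (1.00), lies close by at V:2210510-2212118 on the minus strand. Its own neighbour nhr-184 was not called (0.09). On chromosome II, nhr-234 and nhr-235 are neighbours and both fell. Such tandem copies can be similar in sequence, and how the upstream quantification divided shared reads between them was not analysed here, so the values of single genes within a cluster are uncertain.

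Receptors of fat, diet and metabolism were followed as a list of 12, all of them members. In the mean of the 4 strains 7 rose (nhr-49, nhr-80, nhr-13, nhr-66, nhr-76, nhr-64 and nhr-69), 3 fell (nhr-68, nhr-114 and nhr-8) and 2 were not called (nhr-10 and nhr-62). The same contrast called 32.7% of all genes higher and 30.8% lower. The median over the list was 0.35, beside 0.03 over all genes. All lists were chosen with earlier results of these data known, so this difference only describes the list. In efk-1, 5 were called higher and 1 lower, where 13.7% and 11.6% of all genes were. In zip-2 the counts were 4 and 1, beside 17.6% and 16.8%, in cep-1 1 and 2, beside 12.3% and 16.1%, and in N2 5 and 1, beside 15.9% and 16.4%.

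NHR-49 is an HNF4-related receptor that in worms turns on fatty acid oxidation and desaturase genes, in part during fasting, and NHR-80, NHR-13 and NHR-66 are reported partners of it. nhr-49 (WBGene00003639, I:9869651-9874680, plus strand) had 84.6, 97.2 and 91 CPM in starved efk-1 animals and 60.3, 60.3 and 60.4 CPM in fed ones. N2 animals had 90.8, 90.8 and 103 CPM starved and 50.8, 57.6 and 59.4 CPM fed. In the libraries labelled cep-1 the ranges overlapped, with 105, 89.9 and 92.0 CPM starved and 109, 78.0 and 72.4 CPM fed. The rise was 0.59 in efk-1, 0.53 in zip-2 and 0.76 in N2 (SE 0.16, edgeR adjusted p = 0.00984, 0.0154 and 0.00147), and in cep-1 the change was 0.14 and not called (edgeR adjusted p = 0.525). The zip-2 call was lost without zip-2 fed replicate 2 or starved replicate 3. The difference between the cep-1 and the N2 response, -0.62, was not called (edgeR adjusted p = 0.658).

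nhr-80 (WBGene00003670, III:11985-14869, minus strand) was called higher in the same 3 strains and in the mean of the 4 (0.32, SE 0.07, edgeR adjusted p = 0.000551), and the mean call held in all 29 alternatives. It had 26, 32.2 and 26.4 CPM in starved and 17.2, 20.9 and 19.7 CPM in fed animals labelled zip-2, and 22, 21.5 and 20.9 CPM in starved and 24.3, 22.4 and 24.1 CPM in fed animals labelled cep-1. The rise in zip-2 was 0.54 (SE 0.14, edgeR adjusted p = 0.00659), lost without zip-2 fed replicate 1, and the cep-1 value was -0.14 (SE 0.14, edgeR adjusted p = 0.489). The efk-1 call of nhr-80 (0.42) was lost in 10 of 12 alternatives, among them omission of any 1 fed replicate or of starved replicate 2 or 3. Its N2 call (0.45) was lost in 6 of 12, among them omission of fed replicate 1 or 3 or starved replicate 2. nhr-13, at 8.09 to 13.5 CPM starved and 4.92 to 8.81 CPM fed, rose by 0.79 in the mean of the 4 strains (SE 0.10). It was called in each strain but cep-1 (0.41, edgeR adjusted p = 0.106). nhr-66 rose by 0.47 (SE 0.13) and among single strains was called in N2 (0.75, edgeR adjusted p = 0.0315), a call lost without N2 fed replicate 1 or 2 or starved replicate 2 or 3.

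Of 7 reported NHR-49 target genes, 5 rose, 1 fell and ech-1.1, a fatty acid oxidation gene, was not called in the mean of the 4 strains (median 0.81). Beside them, 32.7% of all genes were called higher and 30.8% lower. fmo-2, a flavin monooxygenase gene induced by fasting, had 7.97, 21.3 and 67.8 CPM as lowest, median and highest starved values and 0.0812, 0.245 and 1.03 CPM as fed ones (log2 fold change 6.19, SE 0.41, edgeR adjusted p = 6e-11). Its starved and fed libraries did not overlap. fat-7, a stearoyl-CoA desaturase gene, was lower, at 13.1 to 166 CPM starved and 82.1 to 238 CPM fed (-1.51, SE 0.16, edgeR adjusted p = 9.15e-08). acs-2, an acyl-CoA synthetase gene of fatty acid oxidation, rose in efk-1 (1.56) and cep-1 (2.10) and was not called in zip-2 (-0.57) or N2 (0.19). The targets thus moved in both directions while nhr-49 rose. acs-2 lost its mean call without the oocyte-rich libraries (edgeR adjusted p = 0.0865), as did fat-6, another desaturase gene (0.44 with all libraries, edgeR adjusted p = 0.966 without them). The call of fat-6 was lost in 14 of 29 alternatives, 11 of them omissions of 1 library.

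NHR-10 and NHR-68 are reported to act in sequence to switch on the propionate shunt, an alternative route for breaking down propionate when vitamin B12 is low. nhr-68 (WBGene00003658, V:11573440-11575709, plus strand) had 12.1, 32.9 and 52.4 CPM as lowest, median and highest starved values and 33.3, 56.6 and 67.2 CPM as fed ones. The log2 fold change was -0.83 (SE 0.21, edgeR adjusted p = 0.00181), and it was called in no single strain (edgeR adjusted p from 0.0502 in zip-2 to 0.257 in N2). Its 4 lowest starved values, 20.6 CPM in efk-1, 12.1 in zip-2, 13.5 in cep-1 and 15.4 in N2, were those of the oocyte-rich libraries, against 29.9 to 52.4 CPM in the others. The call held without them. Because these libraries were picked in part on summed receptor counts, the low values there are partly fixed by that choice. nhr-10 showed the same division, at 2.53 to 7.64 CPM in the oocyte-rich libraries and 11.9 to 17.7 CPM in the other starved ones, and was not called (0.13, SE 0.22).

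Of the 5 enzyme genes of the shunt, 4 fell in every strain, where 6.81% of all genes tested were called lower in all 4 strains. acdh-1, an acyl-CoA dehydrogenase gene and the first step of the shunt, had a median of 453 CPM and at most 617 CPM in starved libraries, and a median of 1860 CPM and at least 1330 CPM in fed ones, with no overlap (-2.15, SE 0.15, edgeR adjusted p = 2.17e-10). ech-6 changed by -2.14, hach-1 by -1.89 and hphd-1 by -2.41. alh-8, the last enzyme, was not called (-0.30, edgeR adjusted p = 0.0735). The intestine markers, of which 3 of 7 were called lower, are given above, and their part was not tested.

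Among the remaining metabolic receptors, nhr-76 and nhr-69 rose and nhr-62 was not called. nhr-76, which in worms relays neural signals to intestinal fat, had 11 to 20.2 CPM starved and 9.44 to 14.8 CPM fed, rose by 0.46 (SE 0.09) and was called in efk-1 alone among the strains (0.87), although the efk-1 and N2 responses were not called different (0.60, edgeR adjusted p = 0.833). nhr-69 rose by 0.38 (SE 0.14, edgeR adjusted p = 0.0267) and lost this call in 8 of 29 alternatives. nhr-62, required in worms for the longevity of dietary restriction, was at 4.26 to 7.84 CPM starved and 3.87 to 7.35 CPM fed and changed by 0.01 (SE 0.12). These ranges overlap over most of their length.

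Of 5 receptors of moulting and developmental timing, 2 were called in the mean of the 4 strains, both lower, where 30.8% of all genes were lower (median over the list -0.25). NHR-23, the counterpart of the insect receptor DHR3 and vertebrate ROR, drives the oscillating genes of the moult. nhr-23 (WBGene00003622, I:7214745-7221299, plus strand) had 18, 24.5 and 30.4 CPM as lowest, median and highest starved values and 22.8, 27.6 and 42.8 CPM as fed ones, which overlap. The change was -0.25 (SE 0.11, edgeR adjusted p = 0.049), and this call was lost in 18 of 29 alternatives. nhr-41, the counterpart of insect DHR78, fell by 0.65 (SE 0.20, edgeR adjusted p = 0.00817), and nhr-25 (Ftz-F1), nhr-67 (tailless) and nhr-85 (E75 and Rev-Erb) were not called. The cep-1 values of nhr-25 (1.01) and nhr-67 (0.78) were positive and those of the other 3 strains negative, and none of these was called.

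Of 6 moulting genes reported to need NHR-23, 5 fell in the mean of the 4 strains and nas-37, a protease gene of the moult, was not called (median -2.61). Of all genes, 30.8% were called lower there. mlt-10 had 4.06, 16.3 and 56.9 CPM as lowest, median and highest starved values and 58.3, 169 and 358 CPM as fed ones, with no overlap within a strain (-3.13, SE 0.33, edgeR adjusted p = 7.16e-08). In efk-1 all 6 were called lower, in zip-2 and N2 5 each, and in cep-1 2. Of all genes, 11.6% were called lower in efk-1, 16.8% in zip-2, 16.4% in N2 and 16.1% in cep-1. noah-1, a cuticle matrix gene, had 50.1, 47.6 and 14.2 CPM in starved and 16.9, 60.1 and 81.0 CPM in fed animals labelled cep-1 (-0.50, edgeR adjusted p = 0.568), while the efk-1 change was -2.98. Of the 6 epidermis markers, 2 of them (dpy-7 and rol-6) also in this list, 4 were called lower in the mean of the 4 strains. lin-26, a transcription factor of epidermal fate, was called higher (0.54) and elt-3 was not called (0.09), and the part of these markers was not tested.

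**Figure D4:**
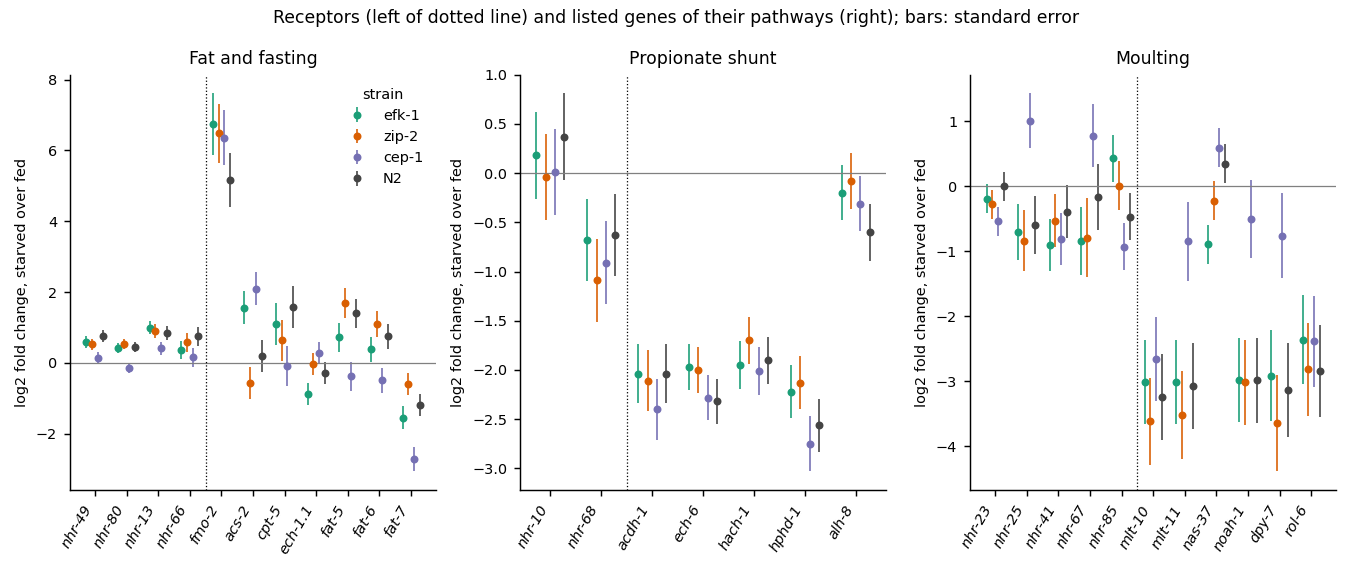
Starvation response by strain, as log2 fold change of starved over fed animals (vertical) with bars for standard errors, of receptors left of each dotted line and of listed pathway genes right of it. fmo-2 lies far above 0 in every strain and acdh-1, ech-6, hach-1, hphd-1 and mlt-10 far below it, while the receptors lie between -1.09 (nhr-68 in zip-2) and 1.01 (nhr-25 in cep-1).

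Among receptors of stress, immunity and foreign compounds, a list of 6, nhr-49 rose and nhr-8 and nhr-57 fell in the mean of the 4 strains, and 3 were not called. Of all genes tested, 32.7% were called higher and 30.8% lower in that contrast. nhr-8 (WBGene00003607, IV:7710983-7714210, plus strand), required in worms for resistance to toxins and for cholesterol balance, had 15.2, 14.1 and 10.9 CPM in starved and 34.5, 25.4 and 38.3 CPM in fed animals labelled cep-1. The groups did not overlap (-1.29, SE 0.28, edgeR adjusted p = 0.00179). In N2 it had 26.8, 21.5 and 19.9 CPM starved and 19.9, 37.8 and 30.6 CPM fed, which overlapped and was not called (-0.37, edgeR adjusted p = 0.308), and the difference of the 2 responses was not called either (-0.91, edgeR adjusted p = 0.811). nhr-57, a target of the hypoxia factor HIF-1 in worms, fell by 0.32 (SE 0.12), a call lost without the oocyte-rich libraries or N2 fed replicate 3. nhr-86, a receptor of bacterial signals in the intestine, had 58.6 to 74.0 CPM in the oocyte-rich libraries and 33.5 to 45.8 CPM in the other starved ones, beside 30.3 to 46.2 CPM in fed libraries, and was not called (0.31, edgeR adjusted p = 0.0694). nhr-14 (-0.18) and nhr-45 (-0.30) were not called.

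Of 11 receptors with direct insect or vertebrate counterparts, 9 are members. nhr-111, with 54 counts in all, and nhr-239, with 50, had fewer than 10 counts in every library. nhr-48 was called higher (0.45, SE 0.09, edgeR adjusted p = 0.000122), nhr-8, nhr-23 and nhr-41 lower, and 5 were not called, among them nhr-6, the counterpart of vertebrate NR4A, and nhr-91, that of GCNF. In this contrast, the mean of the 4 strains, 32.7% of all genes were called higher and 30.8% lower. Of 5 nuclear receptors with other names, odr-7 was too scarce to test. daf-12, the receptor of the dauer decision, had 2.33 to 9.86 CPM in starved and 3.59 to 9.75 CPM in fed libraries (-0.15, edgeR adjusted p = 0.567). unc-55 (-0.39) and fax-1 (-0.37), both of neuronal identity, were not called. sex-1, of sex determination, was called in cep-1 (1.00, edgeR adjusted p = 0.0128), where starved libraries held 39.2, 15.8 and 15.6 CPM and fed ones 15.9, 11.7 and 7.75 CPM, which overlap. Its call in the mean of the 4 strains (0.35, edgeR adjusted p = 0.0367) was lost in 13 of 29 alternatives.

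Genes that make and clear dafachronic acid, the ligand of DAF-12, were mostly lower: 6 of 7 tested were called lower in the mean of the 4 strains, where 30.8% of all genes were, and ncr-1 was not called (median -0.71). In single strains 2 were called lower in efk-1, 4 in zip-2, 2 in cep-1 and 1 in N2. The shares of all genes called lower there were 11.6%, 16.8%, 16.1% and 16.4%, so the N2 count is near its share. daf-36, the Rieske oxygenase at the start of this pathway, had 1.22, 2.44 and 3.96 CPM as lowest, median and highest starved values and 5.48, 15.6 and 22.2 CPM as fed ones, without overlap (-2.64, SE 0.22, edgeR adjusted p = 2.07e-09). daf-9, the cytochrome P450 of the last step, changed by -0.45 (edgeR adjusted p = 0.0238), a call lost without the oocyte-rich libraries. strm-1, a methyltransferase that removes its precursors, changed by -1.18. Of 4 co-regulators, mdt-15, the Mediator subunit that works with NHR-49, rose (0.82, SE 0.17, edgeR adjusted p = 0.000367), with 39.8 to 129 CPM starved and 31.8 to 86.6 CPM fed, and din-1, gei-8 and cbp-1 were not called.

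Mutants were compared with N2 separately by food, and all 3 comparisons use the same N2 libraries. In efk-1, 0 members were called in either state with edgeR. Of all genes tested, 1.93% were called in starved animals (0.693% higher, 1.23% lower) and 1.51% in fed ones (0.0819% higher, 1.43% lower). The count at an unadjusted p under 0.05 was 6 starved and 5 fed, and DESeq2 called 0 in both. In zip-2, 0 members were called with edgeR, 2 in starved and 6 in fed animals had an unadjusted p under 0.05, and DESeq2 called 0. Of all genes, 1.3% were called in starved animals labelled zip-2 (0.0441% higher, 1.26% lower) and 1.13% in fed ones (0.0315% higher, 1.1% lower). The median SE of a member's log2 fold change was 0.34 starved and 0.33 fed in both mutants. On simulated counts of the starved against fed N2 comparison, with 200 of 15549 genes changed, 25% of 2-fold changes were called. Most differences of that size would thus be missed where as few genes change. The real starved against fed N2 comparison called 32.3% of all genes, so this share does not carry over to it.

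The test of whether starvation acted differently in a mutant and in N2 called 0 members in any of the 3 mutants with edgeR, beside 0.246% of all genes for efk-1 and 0.0% for zip-2 and cep-1. At an unadjusted p under 0.05 there were 2 members for efk-1, 1 for zip-2 and 11 for cep-1, and DESeq2 called 0 in each. For the 22 members called in all 4 strains, the response of the mutant minus that of N2 ranged from -0.56 to 0.43 in efk-1, -0.49 to 0.31 in zip-2 and -0.50 to 0.93 in cep-1, with a median SE of 0.355, 0.355 and 0.35. These 22 were chosen for calls in the same direction in N2 and in every mutant. The ranges are thus partly fixed by that choice and describe these members only. An absent call does not show that the responses are equal.

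In the libraries labelled cep-1, 7 members were called different from N2 in starved animals, 5 higher and 2 lower, beside 7.71% of all genes tested (3.33% higher, 4.37% lower). The members called were 3.63% of the 193. nhr-25 (WBGene00003623, X:13008493-13013964, plus strand), the Ftz-F1 receptor of epidermal development and moulting, had 8.18, 3.82 and 1.44 CPM in starved animals labelled cep-1 and 1.38, 0.879 and 1.30 CPM in starved N2. The groups did not overlap, but 1 library was far above the other 2 (1.91, SE 0.45, edgeR adjusted p = 0.014), and the call was lost without it (edgeR adjusted p = 0.144) or without N2 starved replicate 3. nhr-57 had 5.53, 4.41 and 5.09 CPM in cep-1 and 2.40, 2.23 and 2.69 CPM in N2 (1.03, SE 0.24, edgeR adjusted p = 0.015), a call lost without N2 starved replicate 3 or cep-1 starved replicate 1. nhr-117, at 14.2, 16.8 and 8.86 CPM in cep-1 and 3.07, 2.98 and 7.75 CPM in N2, was 1.51 higher (SE 0.44). nhr-168 was 1.31 and nhr-270 2.16 higher, both from levels of about 1 CPM or less in N2.

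nhr-114 and nhr-115 were lower in starved animals labelled cep-1. nhr-114 stood at the levels given above, 31.1 ± 9.89 CPM in cep-1 and 56.0 ± 4.57 CPM in N2 (SD, n = 3 each), without overlap (-0.84, SE 0.21, edgeR adjusted p = 0.0207). nhr-115 had 0.655, 0.175 and 0.277 CPM in cep-1 and 1.18, 1.22 and 1.42 CPM in N2 (-1.76, SE 0.52, edgeR adjusted p = 0.0425). The number of members called depended on single libraries: it was 3 without starved replicate 1 or 2 of cep-1, 3, 4 and 1 without starved replicate 1, 2 and 3 of N2, and 0 when only the 2 groups entered the fit. nhr-114, nhr-115, nhr-117 and nhr-168 all lost the call without starved replicate 1 of N2 and without starved replicate 2 of cep-1. Other omissions that ended a call were starved replicate 3 of N2 (nhr-114, nhr-115, nhr-168), starved replicate 2 of N2 (nhr-115, nhr-117), starved replicate 3 of cep-1 (nhr-114, nhr-115) and starved replicate 1 of cep-1 (nhr-117). nhr-270 was not followed under these omissions. Of the markers, 2 of 5 sperm genes were called lower in starved animals labelled cep-1 than in starved N2 (median over the list -1.1). The summed levels in the 3 cep-1 libraries, the lowest at 66 CPM, were all below those of N2, at 204, 214 and 266 CPM, and their part in these differences was not tested.

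In fed animals labelled cep-1, 3 members were called against N2, 2 higher and 1 lower, beside 4.89% of all genes (2.36% higher, 2.53% lower). nhr-49 had 109, 78.0 and 72.4 CPM in cep-1 and 50.8, 57.6 and 59.4 CPM in N2 (0.63, SE 0.16, edgeR adjusted p = 0.03). nhr-17 on chromosome X had 6.86, 17.3 and 7.28 CPM in cep-1 and 3.62, 3.97 and 4.58 CPM in N2 (1.37, SE 0.37, edgeR adjusted p = 0.0392). Both sets of libraries stood apart, yet both calls were lost without any 1 fed N2 library or cep-1 fed replicate 2, and that of nhr-49 also without cep-1 fed replicate 1. nhr-245 (WBGene00014189, I:11477744-11480071, plus strand) had 0 counts in each of the 3 fed libraries labelled cep-1 and 24, 26 and 66 counts in N2, which is at least 14.7-fold lower with a floor of 3 counts per library. It was also at 0 in the 3 starved N2 libraries (at least 11.8-fold lower than fed N2), and 1 fed zip-2 library was at 0 while the other 2 held 2.49 and 4.81 CPM. The count of members called was 0 without fed replicate 1 or 2 of N2 or fed replicate 2 of cep-1, 1 without fed replicate 3 of N2, 6 without fed replicate 3 of cep-1, and 9 with DESeq2. Of 6 yolk genes, 1 was called higher in fed animals labelled cep-1 (median over the list 1.98), with summed levels of 44889, 24189 and 11333 CPM in cep-1 and 7363, 13025 and 13716 CPM in N2. Oocyte markers, none of which was called, summed to 3777, 2259 and 1104 CPM in cep-1 and 1738, 1611 and 1522 CPM in N2. The first of these cep-1 libraries, the highest in both sums, is also the one with nhr-49 at 109 CPM, and the part of these markers was not tested.

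**Figure D5:**
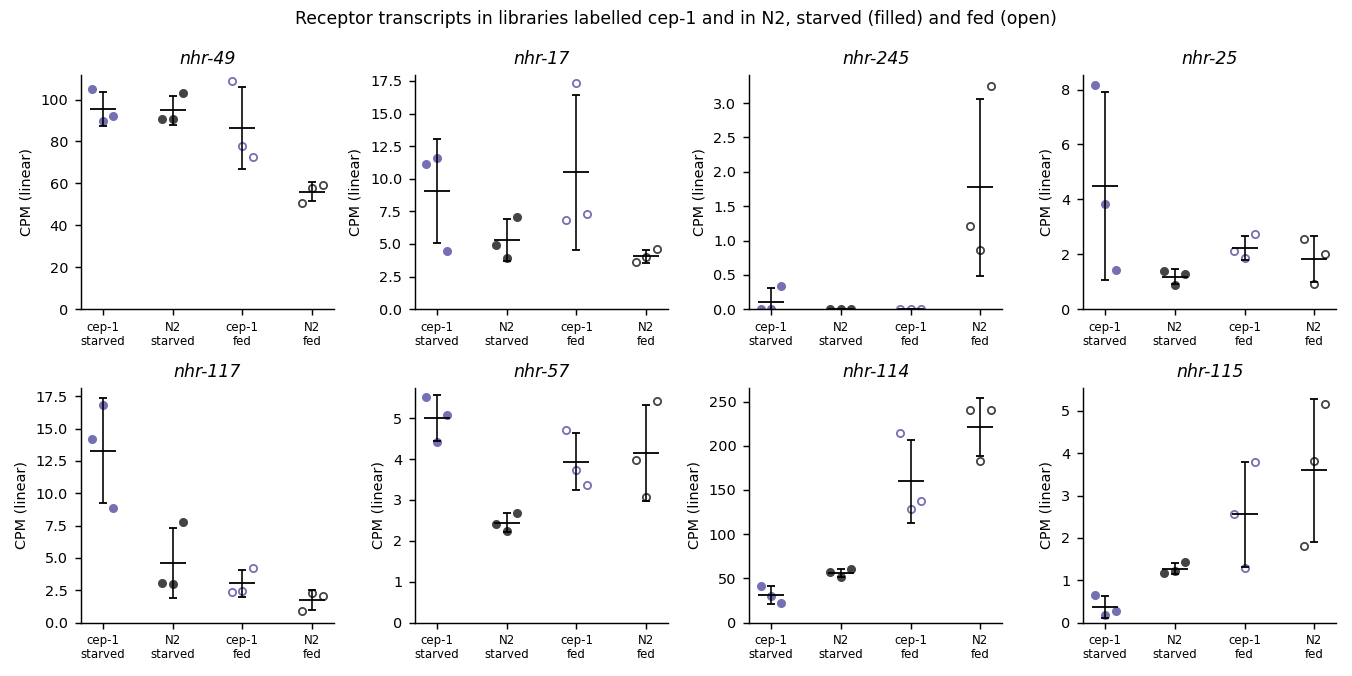
Levels of 8 members in CPM (linear vertical axis) in libraries labelled cep-1 and in N2, starved as filled and fed as open points, with the mean and SD of 3 libraries as bar and whiskers. nhr-57 and nhr-114 separate the starved groups, nhr-49 and nhr-17 the fed groups, and nhr-245 is at 0 CPM in fed cep-1 and in starved N2.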

How the data were processed

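The deposited table holds the authors' estimated counts (expected counts, not normalized) per gene for 24 libraries, 75-base paired reads from strand-specific mRNA libraries per the labels' protocols. Trimmomatic 0.36, Salmon 0.9.1, edgeR and genome build WBcel235 are named in the submitters' processing notes; their settings, the transcript set and the use of strand are not given in the sources used here. Of the values above 0, 10.56% were not whole, and all were rounded. Groups came from sample titles.

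edgeR 4.0.16 (R 4.3.3; TMM factors, filterByExpr, quasi-likelihood test, 1 mean per group, all libraries in 1 fit with 16 residual degrees of freedom, common biological variation 29%) gave 14 contrasts over 15871 genes with Benjamini-Hochberg adjustment. CPM uses the TMM-scaled totals. DESeq2 1.42.0 was an alternative, beside RLE factors, no filter, fits of only the groups compared, a replicate block, single omitted libraries and, chosen after seeing the data, omission of 4 starved libraries. On simulated counts for starved against fed N2 (15549 genes, 200 changed), 25% of 2-fold and 74% of 4-fold changes were called, with 3 false calls. Totals differed by up to 2.07 times; no comparison at matched depth was made.

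Positions are from the Ensembl annotation of WBcel235. The members and all gene lists were chosen with earlier results of these data known. nhr-128 and nhr-184 are named only as uncalled neighbours of called members. Genes named are those on the receptor lists; per contrast, the called members of largest change with mean log2 CPM of at least 0 and no overlap of the groups (up to 10 each way for starvation, 5 for mutants); called list genes of largest change; and a few chosen after their values were seen (nhr-35, nhr-46, nhr-71, nhr-96, nhr-103, nhr-126, nhr-133, nhr-134, nhr-235, nhr-244, nhr-245, nhr-259 and nhr-270).

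Same-numbered libraries deviated together in starved efk-1 against N2 (r = 0.537, 0.752 and 0.391) and starved zip-2 against N2 (0.538, 0.693 and 0.647), each over 0.1. In starved cep-1 against N2 the values were 0.119, -0.695 and -0.383. The main fit used no pairing in any contrast, and all calls, p-values and SE given come from it unless an alternative is named. The replicate block was run for every contrast as an alternative.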

Additional observations from a re-analysis of the deposited data

Results flagged for a closer look

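The libraries of nhr-80 were ordered differently by strain. Every starved library was below every fed library in the libraries labelled cep-1 (log2 fold change -0.14), and every starved library was above every fed library in efk-1 (0.42), zip-2 (0.54) and N2 (0.45). Of these 3 differences, that between cep-1 and N2 was tested as an interaction and was not called (-0.59, edgeR adjusted p = 0.556); the differences between cep-1 and efk-1 and between cep-1 and zip-2 were not tested. The cep-1 change itself was not called (edgeR adjusted p = 0.489), and the efk-1 call was lost in 10 of 12 alternatives.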

How the results depend on the processing

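Of 215 called pairs of a gene and a comparison that were followed under the alternatives, none reversed and 146 stayed called under every alternative, and 321 of 3785 tests of them fell short of the threshold; nhr-96, nhr-126, nhr-235, nhr-245, nhr-259 and nhr-270, the cell type markers other than dpy-7 and rol-6, the efk-1 transcript, and genes other than nhr genes in single strains, were not among these pairs. With only the groups compared in the fit, starvation in cep-1 gave 19 members instead of 41, 11 members instead of 22 were called in all 4 strains, cep-1 against N2 gave 0 starved and 1 fed, and the mean of the 4 strains could not be fitted. cep-1 against N2 in fed animals gave 9 members with DESeq2 and 1 without the filter. Omitting 1 library gave 28 to 39 members for starvation in cep-1, 32 to 43 in efk-1, 36 to 48 in zip-2, 33 to 42 in N2, 99 to 112 in the mean, 0 to 6 for cep-1 against N2 fed and 1 to 7 starved. Omitting the 4 oocyte-rich libraries, an alternative chosen after seeing the data, gave 40, 39, 44, 45 and 113 for the 5 starvation contrasts in that order. With the replicate block, starved efk-1 and starved zip-2 against N2 still gave 0 members. The block changed no other count by over 1.5 times (19 members in all 4 strains, 44 in N2, 2 and 7 in cep-1 against N2 fed and starved). The shares of all genes called under these alternatives are not given here, so changes in the member counts cannot be read as particular to the receptors. No alternative at matched depth was run, so what depth limits, also for the 39 members under 1 CPM in fed N2, was not tested.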

Other observations

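In the 4 oocyte-rich starved libraries receptor values also stood apart. In all 4 strains at once, 74 members (38.3%) had their lowest starved value in that library and 16 (8.29%) their highest, beside 20.2% and 21.1% of all genes tested. These libraries were picked in part on their summed receptor counts, so both shares are partly fixed by that choice and describe it only. Summed germ line markers were at 1851 to 2659 CPM there and 1243 to 1815 CPM in the other 8 starved libraries, and epidermis markers at 158 to 377 CPM and 153 to 935 CPM. Among the members lowest there were nhr-10, nhr-68, nhr-3, nhr-21, nhr-31 and nhr-137. Among those highest there were nhr-86, nhr-46, nhr-55, nhr-58, nhr-71, nhr-88 and nhr-122. nhr-3 had 8.77 to 20.1 CPM there and 18.1 to 37.4 CPM in the other starved libraries, and nhr-46 had 39.7 to 51.7 CPM and 27.3 to 47.9 CPM.

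nhr-74, nhr-73 and nhr-259 are neighbours within I:11429014-11437407 and were called lower in the mean of the 4 strains, with log2 fold changes of -1.75, -1.72 and -1.26, nhr-259 in no single strain. nhr-244, at I:11454780-11455539, was not called (-0.83). nhr-113, beyond it at I:11473218-11475662, changed by -2.16. These genes are scarce, with at most 6.27 CPM in any starved and 14.7 CPM in any fed library for nhr-74.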
